A study of Drosophila melanogaster with 8 samples.

Results

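The Hox genes and their cofactors were followed in the developing central nervous system (CNS) of Drosophila melanogaster pupae. The members were chosen by name: the 8 Hox genes lab, pb, Dfd, Scr, Antp, Ubx, abd-A and Abd-B and the cofactors exd and hth. All 10 were listed among the 13989 genes of the deposited tables. RNA had been sequenced from 4 groups of 2 replicates each, with about 10 CNS pooled per sample. Knockdown CNS carried ElavC155GAL4, a pan-neuronal driver, with dStimRNAi and tubulinGAL80ts, a temperature-sensitive repressor of GAL4. They were taken at 36 h after puparium formation (APF), directly after 24 h of dStim knockdown at 29 °C. Recovered CNS had the same genotype and the same 24 h of knockdown, followed by 36 h of recovery, and were taken at 72 h APF. Wild type CNS (Canton S) were taken at 36 h and at 72 h. The labels name no animals with the driver or the RNAi transgene alone, so knockdown and the difference in genetic background cannot be told apart. Flies were otherwise reared at 25 °C, and the labels do not say whether wild type pupae also spent time at 29 °C.

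Hox genes encode homeodomain transcription factors that give body segments their identity along the head to tail axis. In flies they lie in a pair of clusters on chromosome arm 3R, and their order on the chromosome follows the order of their domains in the body. In the CNS the genes of the Antennapedia complex act from the posterior brain and subesophageal region to the thoracic neuromeres, and those of the bithorax complex in the thoracic and abdominal neuromeres of the ventral nerve cord. There they set how long neuroblasts divide, which neurons die and which motor neurons form. Exd, a PBC-class homeodomain protein, binds DNA together with Hox proteins, and Hth, a homeodomain protein of the Meis class, brings Exd into the nucleus.

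The values are the authors' FPKM, fragment counts divided by transcript length and library size, with 1 value per gene and group over both replicates. No value of a single replicate was used, so no SD, interval or test accompanies them. The tables do not give the number of reads behind a value. Differences below are log2 ratios of these FPKM without a pseudocount. A ratio of at least 2-fold is counted, beside the percentage of all genes above 0 in both groups that differed as much in the same direction. FPKM is scaled to transcript length, so levels of different genes can be set side by side.

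The cofactors stood far above the Hox genes. The authors' pooled FPKM of exd (FBgn0000611, X 15886520 to 15890037 of dm3) was 168 in knockdown and 147 in wild type CNS at 36 h, and 147 in recovered and 128 in wild type CNS at 72 h. For hth (FBgn0001235, 3R 6335569 to 6464386) it was 109 in knockdown and 96.9 in wild type CNS at 36 h, and 75.7 in recovered and 53.5 in wild type CNS at 72 h. In wild type CNS at 36 h, 740 genes stood above exd and 1188 above hth. The order exd, hth, Antp held in all 4 groups. Whether neighbours in the order of levels differ beyond replicate spread cannot be said from pooled values.

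Antp, which specifies the thorax, was the highest Hox gene in every group. Its FPKM (FBgn0260642, 3R 2721975 to 2824950) was 11.9 in knockdown and 10.5 in wild type CNS at 36 h, and 9.14 in recovered and 6.10 in wild type CNS at 72 h. The abdominal gene abd-A (FBgn0000014, 3R 12633349 to 12655769) was close to it at 36 h, with an FPKM of 11.2 in knockdown and 9.94 in wild type CNS. At 72 h abd-A was at 4.997 in recovered and 2.14 in wild type CNS. It was thus above Ubx in recovered CNS and below Ubx in wild type CNS. Ubx (FBgn0003944, 3R 12482098 to 12560348), which separates the haltere segment from the wing segment, was at 6.72 in knockdown and 6.24 in wild type CNS at 36 h. Its FPKM at 72 h was 3.95 in recovered and 2.43 in wild type CNS. Abd-B (FBgn0000015, 3R 12752932 to 12797958), the gene of the most posterior segments, was at 3.49 in knockdown and 3.16 in wild type CNS at 36 h, and at 1.02 in recovered and 0.770 in wild type CNS at 72 h.

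The head genes were low. The FPKM of pb (FBgn0051481, 3R 2533520 to 2567785), a gene of the mouthparts, was 2.59 in knockdown and 3.29 in wild type CNS at 36 h, and 2.31 in recovered and 1.95 in wild type CNS at 72 h. Scr (FBgn0003339, 3R 2648842 to 2675886), which acts in the labial and first thoracic segments, was at 2.72 in knockdown and 2.23 in wild type CNS at 36 h, and at 1.594 in recovered and 1.497 in wild type CNS at 72 h. Dfd (FBgn0000439, 3R 2617558 to 2628152), a gene of the mandibular and maxillary segments, reached an FPKM of 1 only in knockdown CNS at 36 h. It was at 1.14 there and at 0.656 in wild type CNS of that age, and at 0.632 in recovered and 0.669 in wild type CNS at 72 h. The most anterior Hox gene, lab (FBgn0002522, 3R 2487140 to 2504312), stayed under 1 throughout, with 0.634 in knockdown and 0.542 in wild type CNS at 36 h and 0.300 in recovered and 0.403 in wild type CNS at 72 h. All 4 groups reached an FPKM of 1 in 7 of the 10 genes, the exceptions being lab, Dfd and Abd-B. No other listed gene overlapped the locus of any of the 10.

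**Figure D1:**
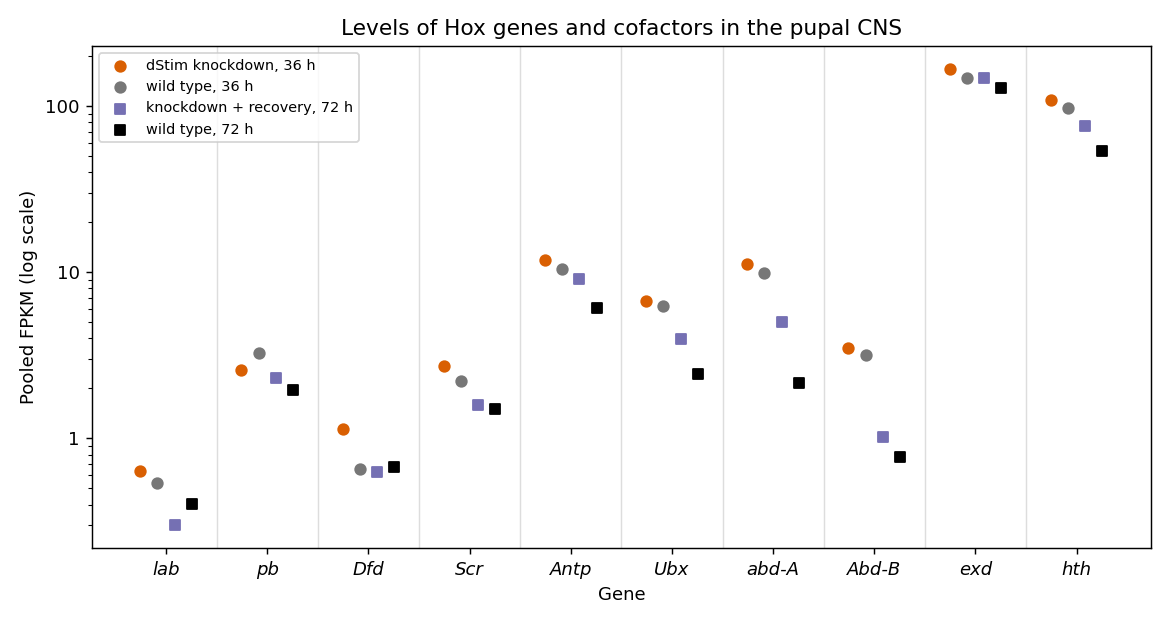
Authors' pooled FPKM (log axis) of the 8 Hox genes and 2 cofactors in 4 groups: dStim knockdown and wild type CNS at 36 h (circles), recovered and wild type CNS at 72 h (squares). Each point is 1 value pooled over 2 replicates, with no error. The cofactors lie between 53.5 and 168, and abd-A has the widest spacing of its 72 h points, 4.997 in recovered against 2.14 in wild type CNS.

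Several facts of the whole series bear on these values. The targeted gene dStim, listed as Stim, was at an FPKM of 33.9 in knockdown and 42.2 in wild type CNS at 36 h, and at 31.3 in recovered and 38.6 in wild type CNS at 72 h, ratios of 0.803 and 0.809. In these pooled FPKM, which carry no replicate error, dStim was thus about as far below wild type in recovered as in knockdown CNS. The paper, by contrast, measured dStim by quantitative PCR after the recovery period and describes its expression as restored. Why the pooled FPKM differ from that description was not tested. The word recovered is used here as the sample label and makes no statement on the dStim level. The sample labels give the tissue as pupal brain and the source as the CNS. Ubx, abd-A and Abd-B, known from the ventral nerve cord, were listed above 0 in all groups, as were the brain patterning genes ey and toy and the markers of neurons (Syt1, Syn, brp, elav) and glia (repo, moody). Markers of muscle were present too, and their part in the Hox values was not tested. Over 9 of 9 muscle genes (Mhc, Act57B and others, none at 0), summed FPKM was 64.8 in knockdown and 151 in wild type CNS at 36 h, and 853 in recovered and 976 in wild type CNS at 72 h. In bulk tissue, fewer cells of a type and less RNA per cell cannot be told apart.

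At 36 h the question was whether Hox expression differed directly after dStim knockdown. None of the 10 genes differed by 2-fold in either direction, against 5.04% of 11841 genes at least 2-fold higher and 6.54% at least 2-fold lower in knockdown CNS. The log2 ratio of knockdown over wild type was 0.17 for Antp, 0.11 for Ubx, 0.17 for abd-A, 0.14 for Abd-B, 0.19 for exd and 0.17 for hth. These are ratios of 1.08-fold to 1.14-fold, and no replicate error is at hand to set against them. Dfd had the widest ratio, 0.80 on the log2 scale or 1.74-fold, at levels of 1.14 and 0.656 FPKM. It was the single member past 1.5-fold, where 9.74% of all genes were. The ratio of pb was -0.34, that of Scr 0.29 and that of lab 0.23.

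In all, 9 of 10 ratios at 36 h were above 0, with a median of 0.17, whereas 49.6% of all genes were above 0 and their median was 0.00. Long transcripts as a class were higher in knockdown CNS. Of 1896 genes with a transcript over 4 kb that reached an FPKM of 1 in both groups, 73.3% had a ratio above 0. The 6 members with such transcripts, Scr, Antp, Ubx, abd-A, Abd-B and hth, all did. Relative to genes of similar transcript length the median of the 10 was 0.10, the ratio of abd-A 0.10 and that of Abd-B -0.03. Of the 9 muscle markers, 7 were at least 2-fold lower in knockdown CNS, against 6.54% of all genes, and their part in the Hox ratios was not tested.

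At 72 h the question was whether the groups still differed after the labelled recovery, at an age when the FPKM ratio of dStim itself was 0.809. abd-A was 2.33-fold higher in recovered than in wild type CNS, a log2 ratio of 1.22. It was the only member past 2-fold, against 3.73% of 11732 genes in that direction, and no member was 2-fold lower, where 12.1% of genes were. In all, 2.72% of genes had a ratio at least as high. Ubx followed at 1.62-fold (log2 ratio 0.70), and Antp at 1.498-fold (0.58) and hth at 1.42-fold (0.50) were next. Past 1.5-fold were abd-A and Ubx, against 10.1% of all genes. Abd-B stood at 0.41, pb at 0.24, exd at 0.20 and Scr at 0.09. The ratio of Dfd was -0.08 and that of lab -0.43, both at an FPKM under 1 in both groups. Of the 10 ratios, 8 were above 0, with a median of 0.32, whereas 45.6% of all genes were above 0. Scaling on the upper quartile lowered every ratio at 72 h by 0.14, which turned that of Scr to -0.05 and left abd-A past 2-fold. With 1 added to each FPKM the log2 ratio of abd-A was 0.93.

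Here too the ratio followed transcript length, and more steeply. Among genes that reached an FPKM of 1 in both groups, the median log2 ratio was -0.24 in the 10% with the shortest transcripts and 0.44 in the 10% with the longest. Of 1829 genes over 4 kb, 90.5% had a ratio above 0 and 18.5% were at least 1.5-fold higher in recovered CNS. All 6 long members had a positive ratio as well, a share close to that background. Abd-B, at 0.770 FPKM in wild type CNS, was under the FPKM minimum applied to the 1829 genes. A 2-fold difference in this direction was seen in 1.59% of these long genes, and abd-A, with a transcript of 5.27 kb, was 1 of them. Relative to genes of similar length the log2 ratio was 0.94 for abd-A, 0.46 for Ubx and 0.30 for Antp. By the same measure hth stood at 0.12, exd at 0.10, pb at 0.06, Abd-B at -0.10, Dfd at -0.12, Scr at -0.15 and lab at -0.46. The sign for Abd-B and Scr thus turned, abd-A no longer reached 2-fold, which 4.26% of genes did on this scale, and the median of the 10 was 0.08.

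**Figure D2:**
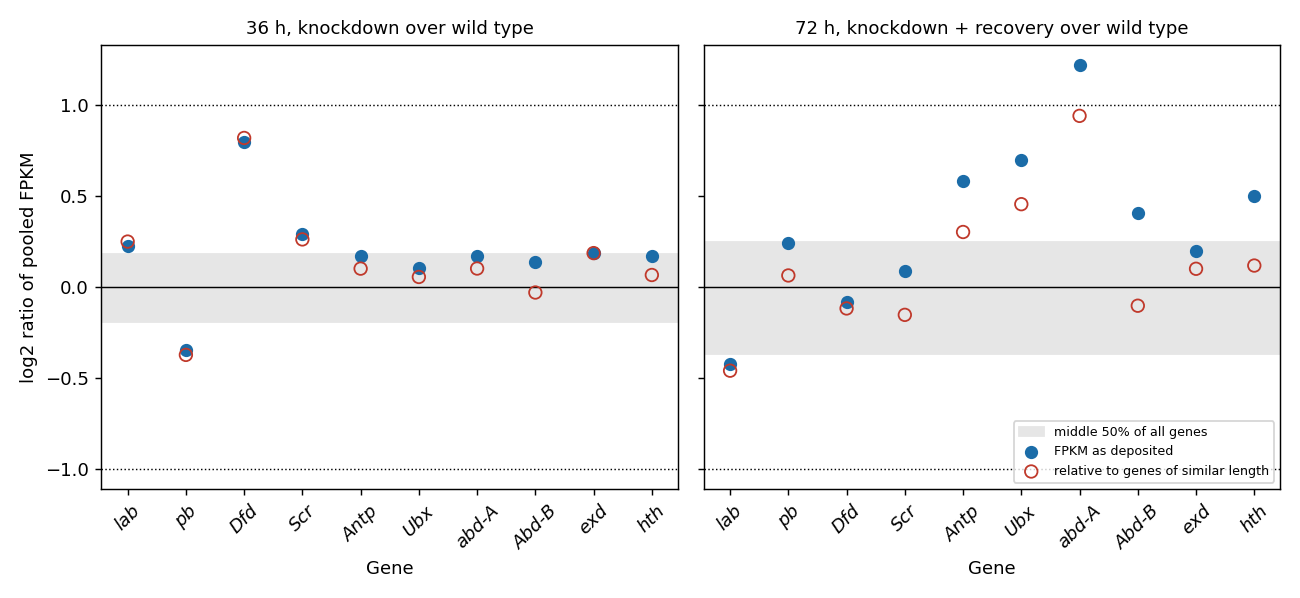
Log2 ratio of pooled FPKM for each gene, knockdown over wild type at 36 h (left) and recovered over wild type at 72 h (right). Filled points are ratios as deposited, open points are relative to genes of similar transcript length, the grey band holds the middle 50% of all genes, and dotted lines mark 2-fold. At 72 h abd-A stands at 1.22 as deposited and 0.94 relative to length.

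**Figure D3:**
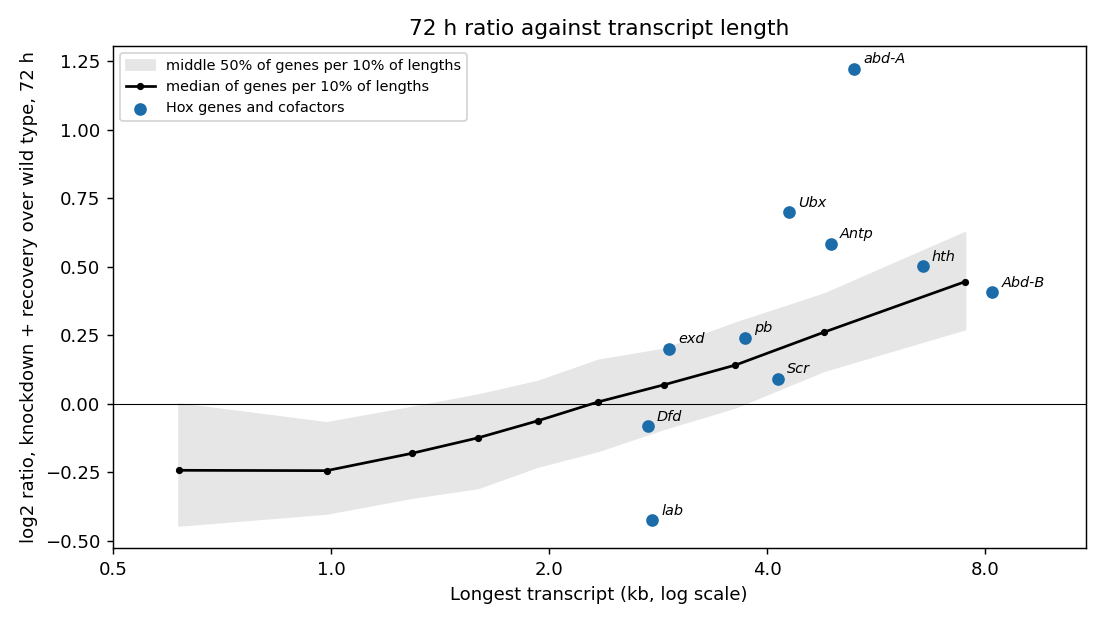
Log2 ratio of recovered over wild type CNS at 72 h against the longest transcript in kb (log axis). The line and band give the median and the middle 50% of expressed genes (FPKM of 1 or more in both groups), in steps of 10% of genes by transcript length, and points are the 10 members. The median climbs to 0.44 for the longest transcripts, and abd-A (1.22), Ubx (0.70) and Antp (0.58) lie above the band.

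Markers of other cells also differed between the groups at 72 h, and their part in the ratio of abd-A was not tested. Of 9 muscle genes, 3 were at least 2-fold higher in recovered CNS (Act88F, Act79B and TpnC4), where 3.73% of all genes were. None was at least 2-fold lower, where 12.1% of all genes were. The muscle genes did not move together, with 5 ratios above 0 and 4 below 0. Their summed FPKM was 853 in recovered and 976 in wild type CNS. Of the 6 male germline genes, Mst84Da was at 23.9 FPKM and dj at 5.53 in wild type CNS, and both were listed at 0 in recovered CNS. The summed level of the 6 was 0.287 in recovered and 29.9 in wild type CNS, most of the latter from Mst84Da and dj. The list did not move together. Of the 4 genes above 0 in both groups, all under 1 FPKM, 2 had a ratio above 0 and 2 below 0. Among them vas was higher in recovered CNS, at 0.113 against 0.0360 in wild type CNS. Among the neuron markers, with long transcripts of their own, brp had a log2 ratio of 0.77 and elav one of 0.71, or 0.26 and 0.20 relative to genes of similar length. Set against elav, abd-A was at 0.120 in recovered and 0.0840 in wild type CNS, Ubx at 0.0948 in recovered and 0.0954 in wild type CNS, and Antp at 0.220 in recovered and 0.239 in wild type CNS. Of these 3 ratios to elav only that of abd-A was higher in recovered CNS. The outcome depends on the marker, since Syt1 and Syn had log2 ratios of 0.43 and 0.41, below those of Ubx (0.70) and Antp (0.58). Relative to genes of similar length elav, at 0.20, was below Ubx (0.46) and Antp (0.30) as well.

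The ratio of a pair of Hox genes within a group does not depend on a scaling factor between groups. The ratio of abd-A to Ubx was 1.67 in knockdown and 1.59 in wild type CNS at 36 h, and 1.27 in recovered and 0.881 in wild type CNS at 72 h. The ratio of abd-A to Antp was 0.945 in knockdown and 0.944 in wild type CNS at 36 h, and 0.547 in recovered and 0.351 in wild type CNS at 72 h. The 36 h groups were thus closer to each other in both ratios than the 72 h groups. Abd-B, turned round as the ratio of Abd-B to abd-A, gave the same order, with abd-A higher relative to it in recovered CNS (0.204) than in wild type CNS (0.360) at 72 h. Ubx to Antp was 0.432 in recovered and 0.399 in wild type CNS at 72 h.

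The question between ages was how Hox levels at 72 h compared with those at 36 h in each genotype. The tables for the time points were normalized separately, and the median log2 ratio of expressed genes (FPKM of 1 or more at both ages) was -0.40 for wild type CNS at 72 h over 36 h. In wild type CNS the bithorax complex was lower at 72 h in all its 3 genes. abd-A was 4.64-fold lower (2.14 FPKM at 72 h and 9.94 at 36 h), Abd-B 4.11-fold lower and Ubx 2.57-fold lower. None of the other 7 members reached 2-fold, while 25.3% of all genes were at least 2-fold lower and 18.2% at least 2-fold higher at 72 h. At 1.5-fold 6 of 10 were lower, against 39.8% of genes, and 9 of 10 ratios were below 0, against 61.3%. The log2 ratio was -0.79 for Antp, -0.75 for pb, -0.57 for Scr, -0.43 for lab, 0.03 for Dfd, -0.86 for hth and -0.20 for exd. From Antp to Ubx to abd-A the ratio moved further below 0 with position toward the tail, and Abd-B at -2.04 lay close to abd-A at -2.21.

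Relative to the median gene, the log2 ratios in wild type CNS were -1.81 for abd-A, -1.64 for Abd-B, -0.96 for Ubx, -0.46 for hth, -0.39 for Antp, -0.35 for pb, -0.17 for Scr and -0.03 for lab. On this scale Ubx was no longer 2-fold lower, where 16.5% of genes were, exd turned to 0.20, and Dfd stood at 0.43. As deposited, 7.33% of all genes had a ratio as low as that of abd-A and 8.68% one as low as that of Abd-B. Markers of other cells differed with age as well, and their part was not tested. In wild type CNS the muscle genes summed to 976 FPKM at 72 h and 151 at 36 h, and 7 photoreceptor genes to 354 FPKM at 72 h and 145 at 36 h. The 6 glia markers summed to 5094 FPKM at 72 h and 698 at 36 h. These sets did not rise as a whole. Above 0 were 8 of 9 muscle, 6 of 7 photoreceptor and 4 of 6 glia ratios, against 38.7% of all genes. Among those below 0 were the glia marker repo (37.5 FPKM at 72 h and 57.7 at 36 h) and the photoreceptor gene chp (37.8 and 104). The neuron marker elav was 3.01-fold lower at 72 h (25.5 FPKM at 72 h and 76.7 at 36 h), a log2 ratio of -1.59, further below 0 than that of Ubx. Ubx set against elav gave 0.0954 at 72 h and 0.0813 at 36 h. Antp set against elav gave 0.239 at 72 h and 0.137 at 36 h, and abd-A set against elav 0.0840 at 72 h and 0.130 at 36 h. Relative to elav, abd-A was thus lower at 72 h and Ubx and Antp were not. That outcome depends on the marker. The neuron marker Syt1 went the other way, with 551 FPKM at 72 h and 259 at 36 h. Its log2 ratio was 1.09, that of Syn 0.09 and that of brp -0.45, all above those of Ubx (-1.36) and Antp (-0.79). Set against Syt1, Syn or brp, Ubx and Antp were thus lower at 72 h as well.

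In CNS with the knockdown genotype the ratio of 72 h over 36 h was below 0 for all 10 genes, where 64.0% of 11581 genes were. Abd-B was 3.42-fold lower (1.02 FPKM at 72 h and 3.49 at 36 h), abd-A 2.24-fold lower and lab 2.11-fold lower, the last at an FPKM under 1 at both ages. These 3 passed 2-fold, against 29.7% of all genes, and 0 were 2-fold higher, where 15.3% of genes were. At 1.5-fold 6 of 10 were lower, against 43.5%. Ubx had a log2 ratio of -0.77, Scr -0.77, Dfd -0.85, hth -0.53, Antp -0.38, exd -0.19 and pb -0.17. The median over expressed genes was -0.38. Relative to it Abd-B stood at -1.40 and was the only member 2-fold lower, where 21.0% of genes were, abd-A at -0.79, lab at -0.71 and Ubx at -0.39. By that measure exd was at 0.19 and pb at 0.21, so their sign turned, and Antp was at the median. This comparison and the wild type one share the libraries of the knockdown comparisons above, so they restate the same 4 values per gene and add no independent evidence.

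**Figure D4:**
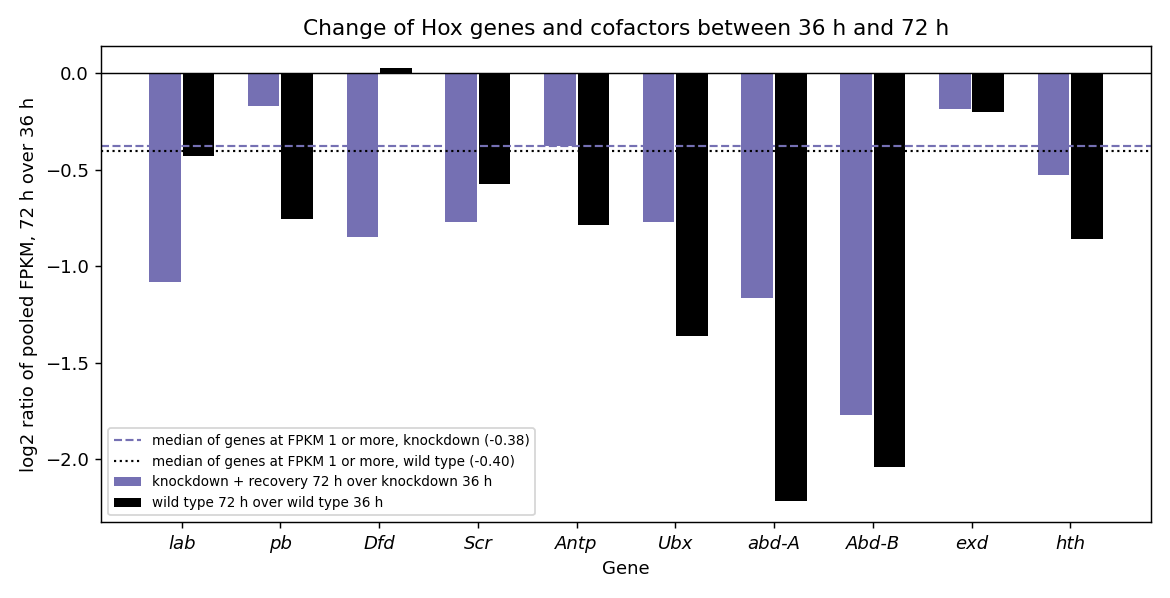
Log2 ratio of pooled FPKM at 72 h over 36 h for each gene, in the knockdown genotype (purple) and in wild type CNS (black). Dashed and dotted lines give the median of expressed genes (FPKM of 1 or more at both ages), -0.38 for the knockdown genotype and -0.40 for wild type. The bars of Ubx, abd-A and Abd-B in wild type CNS reach -1.36, -2.21 and -2.04.

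The make-up of the Hox total differed between the ages and, at 72 h, between the genotypes. The 8 Hox genes summed to 40.3 FPKM in knockdown and 36.6 in wild type CNS at 36 h, and to 23.9 in recovered and 16.0 in wild type CNS at 72 h. The bithorax complex held 53.1% of this sum in knockdown and 52.9% in wild type CNS at 36 h, and 41.6% in recovered and 33.5% in wild type CNS at 72 h. abd-A alone held 27.8% in knockdown and 27.2% in wild type CNS at 36 h, and 20.9% in recovered and 13.4% in wild type CNS at 72 h. Antp held 38.2% in both groups at 72 h. The sum of exd and hth was 277 in knockdown and 244 in wild type CNS at 36 h, and 223 in recovered and 182 in wild type CNS at 72 h. The ratio of hth to exd was 0.651 in knockdown and 0.658 in wild type CNS at 36 h, and 0.514 in recovered and 0.417 in wild type CNS at 72 h. Their transcripts differ in length, 6.56 kb for hth and 2.93 kb for exd. Relative to genes of similar length their log2 ratios of recovered over wild type CNS were close to each other, 0.12 and 0.10.

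**Figure D5:**
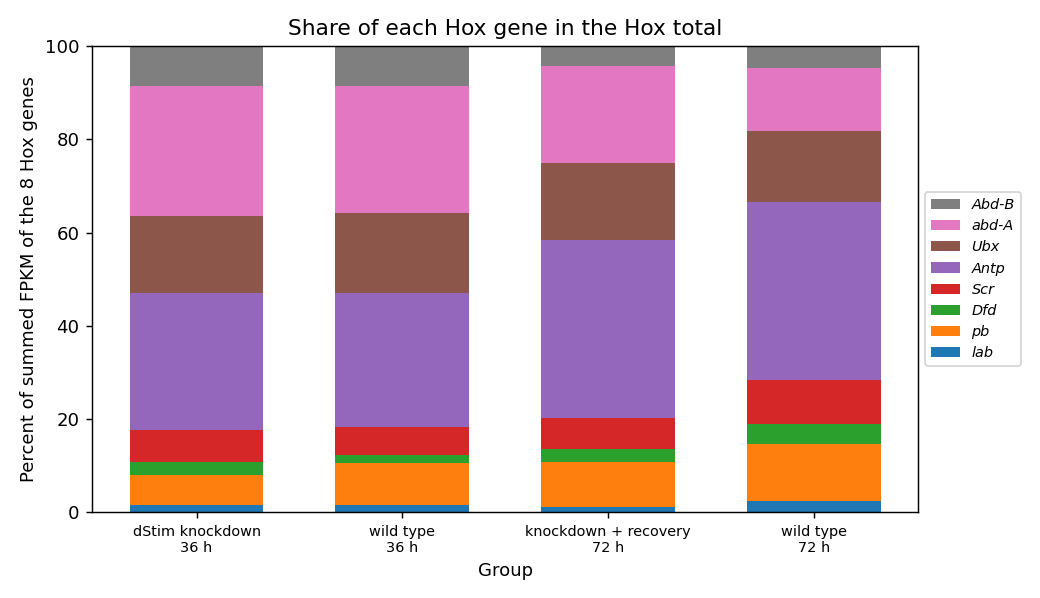
Share of each Hox gene in the summed pooled FPKM of the 8 Hox genes, in percent, for knockdown and wild type CNS at 36 h and for recovered and wild type CNS at 72 h. The abd-A segment covers 20.9% in recovered and 13.4% in wild type CNS at 72 h, and 27.8% and 27.2% in the 36 h groups.

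The log2 ratio to wild type at 72 h minus that at 36 h was 1.05 for abd-A, 0.59 for Ubx, 0.59 for pb, 0.41 for Antp, 0.33 for hth, 0.27 for Abd-B and 0.01 for exd. It was -0.20 for Scr, -0.65 for lab and -0.88 for Dfd. Over 11181 genes, 5.21% had a difference of at least 1 in the direction of abd-A and 11.1% one as large in the other. Relative to genes of similar transcript length the difference of abd-A was 0.84 and the median of the 10 was -0.01. Without replicate values no interaction could be tested, so these differences are descriptions.

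Among expressed genes other than the members (FPKM of 1 or more in all 4 groups), the shape of abd-A over the groups had few counterparts. After each gene was centred on its own mean log2 FPKM, 0 of 8305 genes came within 0.1 of abd-A in every group and 3 came within 0.25. The nearest was CG42792, with a largest difference of 0.14. For Ubx 7 genes came within 0.1, the nearest being seq, and for pb 5, the nearest being CG1603. For Antp 45 came within 0.1, the nearest being B4, and for hth 61, the nearest being ssp3. Scr had 52, led by Shroom, and exd had 113, led by CG11266. These are likenesses over 4 values, and the limits are absolute log2 differences, so genes with a wide range can have fewer neighbours. The range of abd-A, from 2.14 to 11.2 FPKM, was the widest of the members compared. Other genes of similar range were not counted.

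Other genes tied to Hox function were counted from fixed lists. The zinc finger gene tsh, which works with the trunk Hox genes, had an FPKM of 10.7 in recovered and 7.76 in wild type CNS at 72 h, and its paralog tio one of 11.1 in recovered and 6.61 in wild type CNS. Their log2 ratios were 0.46 and 0.74, or 0.22 and 0.46 relative to genes of similar length. Of the 4 teashirt and disco genes 0 passed 2-fold at either age between knockdown genotype and wild type. In either direction 11.6% of all genes did at 36 h and 15.8% at 72 h, or 3.64% and 3.99% of genes with an FPKM of 1 or more in both groups. In wild type CNS tsh was 2.64-fold lower at 72 h than at 36 h. The other homeobox genes of the Antennapedia complex (bcd, zen, zen2, ftz), which no longer act as segment identity genes in flies, were at an FPKM of at most 1.00 in every group. The 4 other genes of the bithorax complex that were matched stayed under 1. Among them bxd, a noncoding RNA from the control region of Ubx, was at 0.307 FPKM in knockdown and 0.144 in wild type CNS at 36 h, and at 0.218 in recovered and 0.106 in wild type CNS at 72 h. Its ratio was thus 2.13-fold at 36 h, where that of Ubx was 1.08-fold, and 2.05-fold at 72 h. The noncoding gene msa was read from the entry listed as CG31270, to which it was matched by synonym. That entry was at 0.813 in knockdown and 0.147 in wild type CNS at 36 h, and at 0.140 in recovered and 0.212 in wild type CNS at 72 h. Glut3, a gene inside the complex, was at 0.0266 in recovered and 0.458 in wild type CNS at 72 h. Of these 4 genes 2 were at least 2-fold higher at 36 h, where 5.04% of all genes were. At 72 h 1 was as much higher and 1 as much lower, where 3.73% and 12.1% of all genes were. All these values were under an FPKM of 1, with no replicate error or read number at hand.

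Polycomb group proteins keep Hox genes silent outside their domains, and trithorax group proteins keep them active. Of 20 Polycomb group genes and 15 trithorax group genes, 0 passed 2-fold between knockdown and wild type CNS at 36 h, and 0 between recovered and wild type CNS at 72 h. Of all genes 11.6% passed 2-fold in either direction at 36 h and 15.8% at 72 h. Among genes with an FPKM of 1 or more in both groups 3.64% and 3.99% did, so a count of 0 is near that share. The median log2 ratio at 72 h was 0.18 for the Polycomb group and 0.26 for the trithorax group, and 0.07 and -0.19 relative to genes of similar length, so that of the trithorax group turned in sign. The trithorax group gene Trl, which encodes GAGA factor, had 14.1 FPKM in recovered and 8.67 in wild type CNS. Its log2 ratio of 0.70 was the highest of that group, whose lowest was -0.45. The highest of the Polycomb group was Psc at 0.66, with 4.85 FPKM in recovered and 3.08 in wild type CNS. Relative to genes of similar length Trl stood at 0.46 and Psc at 0.27. With age, 9 of 20 Polycomb group genes were at least 2-fold lower in wild type CNS at 72 h, where 25.3% of all genes were, among them jing (15.3 FPKM at 72 h and 44.6 at 36 h) and Caf1 (15.1 at 72 h and 50.3 at 36 h), and 0 were as much higher. Pc itself was at 22.4 FPKM at 72 h and 13.9 at 36 h. Of the trithorax group 9 of 15 were at least 2-fold lower at 72 h, against the same 25.3%, with mor, a subunit of the Brahma chromatin remodelling complex, at 14.7 FPKM at 72 h and 63.4 at 36 h. Of the 5 TALE homeobox genes other than exd and hth, 3 were at least 2-fold lower in wild type CNS at 72 h than at 36 h, where 25.3% of all genes were. These were the Iroquois genes ara (2.34-fold), caup (2.72-fold) and mirr (2.18-fold).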

How the data were processed

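Libraries had been made from CNS RNA with the Illumina TruSeq v2 kit. The authors aligned reads to dm3 with TopHat2 2.0.11, and with Cuffdiff 2.2.0 deposited 1 FPKM per gene and group, geometrically normalized and pooled over 2 replicates. The gene annotation is not given in the sources used here. The tables also hold the authors' own fold changes, test statistics, p-values and q-values, and the edgeR tables their log2 fold changes, an average log2 CPM, p-values and FDR. None of these were used. Members and lists were chosen with earlier results of these data known. All members were described. From every other list up to 4 genes per comparison were to be named, those past 2-fold with the highest mean FPKM, or else the 2 with the highest mean. Not all are printed, and Trl, Psc, Pc and the marker genes were named outside this rule after their values were seen. Ratios were computed for genes above 0 in both groups. Transcript lengths are the longest transcript in Ensembl release 115, which is of another build and was used for names and lengths only. Among genes that reached an FPKM of 1 in every group, 98.3% had a length. Ratios relative to genes of similar length had the median of their length class removed (20 classes of equal size). Alternatives were pseudocounts of 0.1 and 1, an FPKM minimum of 1, centring on the median, upper quartile scaling, centring on length, and thresholds of 1.5-fold and 3-fold. The code was tested on simulated data. Python 3.11.15, pandas 2.3.3, NumPy 2.4.6 and matplotlib 3.10.9 were used.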

Additional observations from a re-analysis of the deposited data

How the results depend on the processing

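No paired analysis was possible because the deposited values are pooled over the replicates, and for the same reason no replicate was left out. The count of members past 2-fold depended on the threshold. At 1.5-fold it was 1 at 36 h and 2 at 72 h between knockdown genotype and wild type, and 6 between ages in wild type and 6 in the knockdown genotype. At 3-fold it was 0 at 72 h, against 1.55% of all genes, and 1 between ages in the knockdown genotype, against 17.4%. The 72 h count, abd-A alone, was also 0 with a pseudocount of 1 and 0 after centring on transcript length. Between ages in the knockdown genotype it was 1 after centring on the median and 1 after centring on length, in place of 3. Of 230 recomputed ratios of single members, 227 moved by less than 1.5-fold and 0 of those past 2-fold turned in sign. The median ratio of the 10 moved by less than 1.5-fold in every alternative run. That limit is wider than the median log2 ratios to wild type themselves, 0.17 at 36 h and 0.32 at 72 h, so it cannot show them to be stable. Centred on transcript length these medians were 0.10 and 0.08. The median difference between the time points went from 0.30 to -0.01. The tables give no read number behind low genes such as lab and Dfd.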

Other observations

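Genes known as Hox targets in other fly tissues were also read. Of 12, 0 were at least 2-fold higher and 2 at least 2-fold lower in recovered than in wild type CNS at 72 h, where 3.73% of all genes were as much higher and 12.1% as much lower. The count of 2 is thus near what all genes showed. These were rpr, a cell death activator, at 3.18 FPKM in recovered and 6.51 in wild type CNS, and wg, a Wnt ligand, at 0.0307 in recovered and 0.128 in wild type CNS. At 36 h y was the single target past 2-fold, at 0.622 FPKM in knockdown and 0.230 in wild type CNS, where 5.04% of all genes were as much higher.

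The 12 homeobox genes that pattern the brain served as an anterior counterpart to the trunk Hox genes. Their median log2 ratio was 0.03 at 36 h and 0.05 at 72 h, and 0.02 at 72 h relative to genes of similar transcript length. Between knockdown genotype and wild type 0 of 12 passed 2-fold at either age. In either direction 11.6% of all genes did at 36 h and 15.8% at 72 h, or 3.64% and 3.99% of genes with an FPKM of 1 or more in both groups. With age, 4 of 12 were at least 2-fold lower in wild type CNS at 72 h, against 25.3% of all genes, among them so (1.27 FPKM at 72 h and 6.16 at 36 h) and oc (5.08 at 72 h and 10.98 at 36 h). The share of ventral nerve cord in each pooled sample was not measured.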
